A study of Rattus norvegicus with 5 samples.

Results

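The Slit and Robo genes were followed in 5 rat glioma tumours. The set consisted of the guidance ligands Slit1, Slit2 and Slit3, the receptors Robo1, Robo2 and Robo4, and Srgap1, a GTPase-activating protein that binds the inner side of Robo receptors. A probe was assigned to a gene through the RefSeq accession that the array lists for it, and the probe with the brightest mean scaled signal stood for the gene. Of the 7 genes, 6 had a probe by this rule (8 probes in all). All 6 were tested among 18913 features, 11104 of them with a gene name, and the brightest probe of each was well above background on all 5 arrays. Robo4 had 0 probes under its 4 current accessions and was not measured here. Slit3 was chosen by its measured signal, which was higher in the nodules than in the primaries, so its values are given as a description with no test.

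Slits are large secreted proteins that bind Robo receptors, and the best known outcome is repulsion of growing axons at the midline of the nervous system. Binding recruits GTPase-activating proteins such as Srgap1 and adaptor proteins such as Nck to the Robo tail, which alters the actin cytoskeleton and cell movement. Slit and Robo proteins are also known from migrating neurons, vessels and tumour cells, where both inhibition and promotion of migration have been described.

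The tumours were grown from C6-L cells, a line of the rat C6 glioma, in BALB/c nu/nu nude mice with a labelled age of 6 weeks. The samples were 3 metastatic lung nodules and 1 γ-irradiated primary tumour, both kinds collected at 6 weeks from the γ-irradiation. A single primary tumour without irradiation, collected at 6 weeks from the grafting of the cells, completed them. Nude mice lack most T cells but keep other host cells, and all tumours came from a single cell line in a mouse host while the probes are rat sequences, so signal from host cells was read across species. Whether each nodule had its own host animal is not given in the labels. The p-values therefore measure only the spread between these 3 nodules, which the lone primaries were assumed to share. Precision is limited by how few arrays there are.

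Each sample was hybridised to its own single-colour array. Levels are log2 signals after subtraction of the array's own 75th percentile, so 0 is the level of that percentile. Gene levels are compared between tumours for the same probe. Marker sums add linear signals over probes, so the brightest probes weigh most in them. Signal exceeded background clearly in 69.8 to 73.5% of an array's gene spots, and 0 were saturated. Nodules correlated with each other at 0.986 to 0.995 over probes detected throughout, with the irradiated primary at 0.973 to 0.978 and with the non-irradiated one at 0.961 to 0.970. Among 16 glial and glioma markers, 14 were tested, and the astrocyte protein Gfap and the oligodendrocyte factor Olig2 were not well above background throughout any of the groups. Their summed signal was 8572, 10640 and 10797% of the 75th percentile in nodules 1, 2 and 3, against 8226% in the irradiated and 8879% in the non-irradiated primary. Vim, which other cell types also express, was the largest single part of that sum. Single members differed more. Against the irradiated primary 0 of 14 passed limma (3 at an unadjusted p under 0.05), where 3.72% of all features passed. Against the non-irradiated primary 2 fell and 0 rose, where 8.85% of all features fell and 9.72% rose. The glial lineage factor Sox10 fell by 4.90 (SE 0.99, limma adjusted p = 0.0365) and the progenitor filament Nes fell by 2.43 (SE 0.49, adjusted p = 0.0364). Sox10 read -4.09, -1.47 and -2.82 in the nodules, -0.23 in the irradiated and 2.105 in the non-irradiated primary. Of the 14, 4 were at least 2-fold lower in the irradiated than in the non-irradiated primary and 0 were higher. Over all features 7.13% were at least 2-fold lower there and 9.3% higher.

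The upstream sequences of Slit3 and Robo2 are shown because these 2 genes had the largest differences of the set. They are the 250 bases before the annotated start in RefSeq (build GRCr8), at chr10:20075679-20075928 on the plus strand for Slit3 and chr11:26526413-26526662 on the minus strand for Robo2, 5′ to 3′. Capitals mark the motifs CCAAT and GGGCGG on either strand.
Slit3: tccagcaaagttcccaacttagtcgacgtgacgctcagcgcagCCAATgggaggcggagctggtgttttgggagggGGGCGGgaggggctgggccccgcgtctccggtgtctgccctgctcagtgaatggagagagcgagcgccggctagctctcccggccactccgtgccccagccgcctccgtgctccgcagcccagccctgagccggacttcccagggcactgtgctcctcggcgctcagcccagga
Robo2: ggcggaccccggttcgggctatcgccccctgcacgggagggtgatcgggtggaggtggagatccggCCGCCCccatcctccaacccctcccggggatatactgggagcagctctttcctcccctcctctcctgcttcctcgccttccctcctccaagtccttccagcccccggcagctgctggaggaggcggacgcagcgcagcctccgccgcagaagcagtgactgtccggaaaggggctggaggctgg
Both stretches had a GC content of 69.2%, at or above that of 91.3% of the 33469 upstream stretches of the same length (median 51.2%). Slit3 held 1 CCAAT and 1 GGGCGG, and Robo2 held 1 GGGCGG (written as its reverse complement CCGCCC) and 0 CCAAT. Over all these stretches 34.0% held CCAAT and 30.5% held GGGCGG, so such matches are common. Neither stretch held TATAAA or CACGTG, searched on both strands and present in 12.9% and 5.59% of the stretches. Such matches describe the letters only, and binding of a factor was not measured.

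Slit2 and Slit3 also host the microRNA miR-218. In GRCr8 the Mir218-2 hairpin lies at chr10:20572523-20572632 on the plus strand, inside the annotated span of Slit3. The Mir218-1 hairpin lies at chr14:66922348-66922457 on the minus strand, inside that of Slit2. The mature sequences are shown because Robo1 and Robo2 are described targets of this microRNA in human and mouse cells. Capitals mark the seed, bases 2 to 8.
rno-miR-218a-5p: uUGUGCUUgaucuaaccaugu
rno-miR-218a-2-3p: cAUGGUUCugucaagcaccgcg
rno-miR-218a-1-3p: aAACAUGGuuccgucaagcac
The 5p arm is the same from both hairpins, while the 3p arms carry different seeds. The array held 0 probes for either locus, so the microRNA was not measured.

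The first comparison set the nodules against the irradiated primary, taken at the same time after irradiation. Slit3 was the member with the highest nodule level relative to this primary. The other ligands, the receptors and Srgap1 did not pass the test. In the second comparison, against the non-irradiated primary, Slit3 was again higher, while Robo2 was lower in all 3 nodules without passing the test. Both comparisons share the nodules.

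Slit3 stood at -2.60, -2.04 and -2.46 in nodules 1, 2 and 3, against -5.05 in the irradiated and -3.57 in the non-irradiated primary. All 3 nodules lay above both primaries, and the irradiated primary was lowest. In linear terms the signal was 16.5, 24.3 and 18.2% of the array's 75th percentile in the nodules, 3.01% in the irradiated and 8.42% in the non-irradiated primary. The nodule mean was -2.37 ± 0.29 (SD, n = 3), and the nodules differed from each other by at most 1.47-fold. The nodules lay 2.69 log2 units (6.45-fold) above the irradiated primary and 1.20 (2.303-fold) above the non-irradiated one. These differences were at or above those of 99.7 and 93.9% of all features, in the order given.

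The irradiated primary was 1.48 lower in Slit3 than the non-irradiated primary, a log2 difference of -1.48, and the non-irradiated one was thus 2.80-fold higher. Neither primary has a replicate. From high to low the order was nodule 2, nodule 3, nodule 1, non-irradiated primary and irradiated primary, and the nodules are not separable from each other beyond their own spread. The level in the irradiated primary, -5.05, lies near the dim end of its array, where the lowest level well above background was -6.03. With the normexp background correction the Slit3 differences were 1.67 against the irradiated primary, 0.83 against the non-irradiated primary, and -0.85 between the primaries, in the same directions but smaller.

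**Figure D1:**
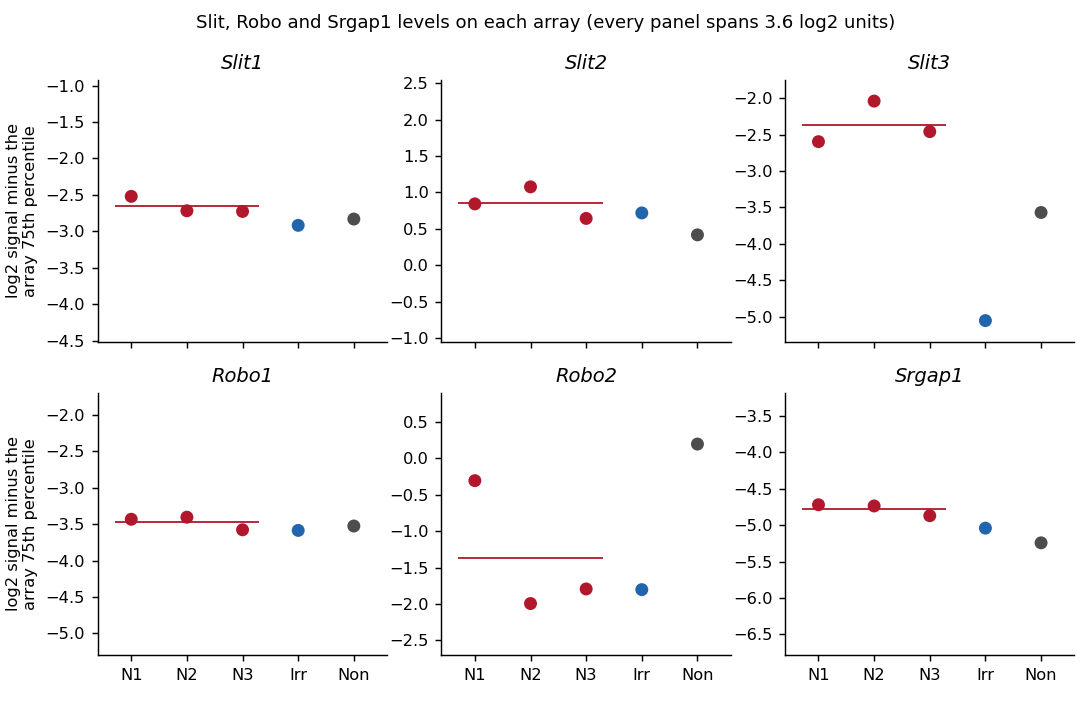
Scaled log2 signal of the brightest probe of each gene (vertical axis, log2 signal minus the array's 75th percentile) on each array: nodules 1 to 3 (N1 to N3, red, line at their mean), the irradiated primary (Irr, blue) and the non-irradiated primary (Non, grey). Slit3 is above both primaries in all 3 nodules, Robo2 is high in nodule 1 and the non-irradiated primary, and the points of the other 4 genes lie close together.

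Slit1, a ligand known mainly from the nervous system, was nearly level across the tumours. It stood at -2.52, -2.72 and -2.73 in nodules 1, 2 and 3, against -2.92 in the irradiated and -2.83 in the non-irradiated primary. All 3 nodules lay above both primaries, by a small margin. The difference was 0.26 against the irradiated primary (95% interval -0.26 to 0.79, limma adjusted p = 0.511) and 0.18 against the non-irradiated primary (interval -0.35 to 0.70, adjusted p = 0.572), and neither passed. The primaries differed by -0.09.

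Slit2, the family member most often studied in vessels and tumours, stood at 0.84, 1.08 and 0.64 in nodules 1, 2 and 3, against 0.72 in the irradiated and 0.42 in the non-irradiated primary. Nodule 3 lay under the irradiated primary, so those groups overlapped, and all nodules lay above the non-irradiated primary. The difference was 0.14 against the irradiated primary (95% interval -0.39 to 0.66, limma adjusted p = 0.742). It was 0.44 against the non-irradiated primary (interval -0.086 to 0.96, adjusted p = 0.191). A second, dimmer Slit2 probe was well above background on all 5 arrays and read -2.86, -2.88 and -3.15 in the nodules, -3.35 in the irradiated and -3.43 in the non-irradiated primary. On that probe all 3 nodules lay above both primaries, and the differences were 0.39 and 0.47 against the irradiated and the non-irradiated primary. The 2 probes thus differ in where nodule 3 falls relative to the irradiated primary. The primaries differed by 0.30 on the brighter probe and 0.08 on the dimmer one.

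Robo1, a Slit receptor, varied least across the 5 tumours. It stood at -3.43, -3.40 and -3.58 in nodules 1, 2 and 3, against -3.59 in the irradiated and -3.53 in the non-irradiated primary. The non-irradiated primary fell inside the nodule range and the irradiated one just under it. The differences were 0.11 against the irradiated primary (95% interval -0.45 to 0.67, limma adjusted p = 0.799) and 0.054 against the non-irradiated primary (interval -0.51 to 0.61, adjusted p = 0.879), so a change of the size seen for Slit3 lies outside both intervals.

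Robo2, the second measured receptor, split the tumours in another way. It stood at -0.31, -1.99 and -1.79 in nodules 1, 2 and 3, against -1.802 in the irradiated and 0.20 in the non-irradiated primary. Nodule 1 and the non-irradiated primary were high, and nodules 2 and 3 and the irradiated primary were low and close together. As a share of the 75th percentile the signal was 80.9, 25.1 and 28.9% in the nodules, 28.7% in the irradiated and 115% in the non-irradiated primary.

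Nodule 1 exceeded nodule 2 in Robo2 by 3.22-fold and nodule 3 by 2.80-fold, while nodules 2 and 3 differed by 1.15-fold. Its SD between nodules, 0.92, was at or above that of 96.6% of all features, against a median SD of 0.16. For scale, 5.25% of features differed at least 2-fold between nodules 1 and 2, 7.06% between nodules 1 and 3, and 2.29% between nodules 2 and 3. Slit3 had an SD of 0.29, Slit2 of 0.22, Slit1 of 0.12, Robo1 of 0.093 and Srgap1 of 0.082.

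The Robo2 difference was 0.44 against the irradiated primary (95% interval -1.40 to 2.28, limma adjusted p = 0.763), with 2 of 3 nodules above it, and -1.56 against the non-irradiated primary (interval -3.40 to 0.28, adjusted p = 0.185), with 0 of 3 nodules above it. Nodule 1 set the second value: without it the difference was -2.09 and passed (adjusted p = 0.00073), with the spread taken from only 2 nodules. Passing was common in that setting: 6406 of all 18913 features did so, beside 3512 with all 3 nodules. The irradiated primary lay at a log2 difference of -2.0 to the non-irradiated primary, so the non-irradiated one was 4.0-fold higher, and 1.61% of features lay as low or lower.
A second Robo2 probe was near background. It read -5.36, -6.18 and -6.00 in the nodules, -5.74 in the irradiated and -5.50 in the non-irradiated primary, and was well above background in nodules 1 and 3 and in the non-irradiated primary. Nodule 1 was again the highest nodule on this probe, but the difference between the primaries was -0.24, far smaller than on the brighter probe.

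Srgap1, the intracellular partner, stood at -4.72, -4.74 and -4.87 in nodules 1, 2 and 3, against -5.04 in the irradiated and -5.24 in the non-irradiated primary. All 3 nodules lay above both primaries. The differences were 0.27 (95% interval -0.41 to 0.94, limma adjusted p = 0.61) and 0.47 (interval -0.21 to 1.15, adjusted p = 0.264) against the irradiated and the non-irradiated primary, and neither passed. The primaries differed by 0.20, which turned to -0.03 with the normexp correction.

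**Figure D2:**
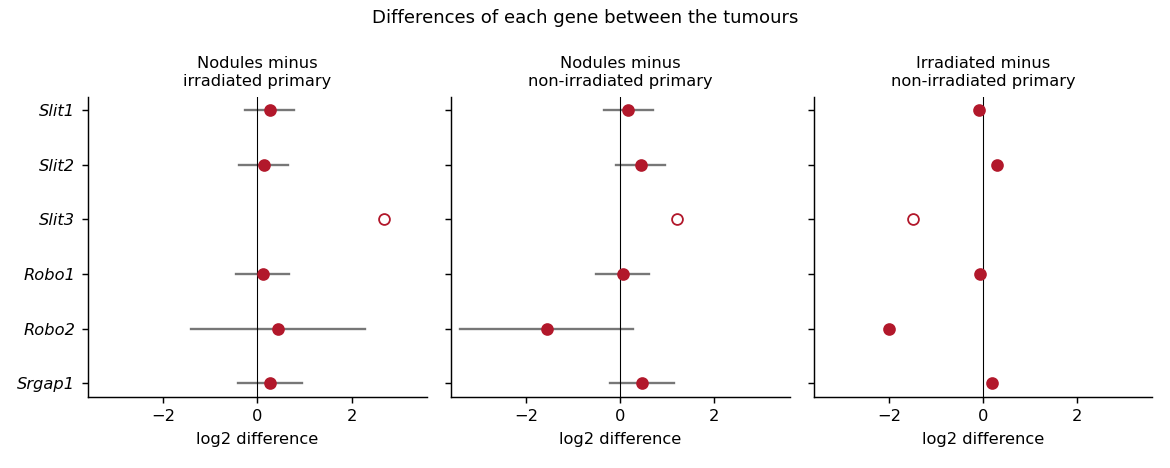
Log2 differences (horizontal axes) of each gene for nodules minus irradiated primary, nodules minus non-irradiated primary, and irradiated minus non-irradiated primary; bars are 95% limma intervals. Slit3 is an open circle with no interval because it was chosen for its level in the nodules, and the primaries have 1 array each and no interval; every drawn interval includes 0, and that of Robo2 is the widest.

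Over the measured members other than Slit3, 0 of 5 passed limma against the irradiated primary, where 3.72% of all features passed (0.909% higher and 2.81% lower in the nodules). Against the non-irradiated primary 0 of 5 passed, where 18.6% of all features did (9.72% higher and 8.85% lower). At an unadjusted p under 0.05 the counts were also 0 of 5 in both. With 5 genes these counts cannot be set apart from the background shares.

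Set by role, all nodules lay above both primaries for 2 of 3 ligands (Slit1 and Slit3), 0 of 2 receptors, and Srgap1, where 22.3% of all features did so. Slit3 is in these counts by choice. All nodules lay above the irradiated primary for Slit1, Slit3, Robo1 and Srgap1, as for 36.2% of features, and above the non-irradiated primary for Slit1, Slit2, Slit3 and Srgap1, as for 40.1%. All nodules lay below the non-irradiated primary for Robo2, as for 36.8% of features. Between the primaries, Slit3 and Robo2 differed at least 2-fold, both lower in the irradiated one, where 16.4% of features differed at least 2-fold (9.3% higher and 7.13% lower in the irradiated primary). The ligand and the receptor that differed most thus shared a low level in the irradiated primary but not their order in the nodules, where Slit3 was lowest and Robo2 highest in nodule 1.

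**Figure D3:**
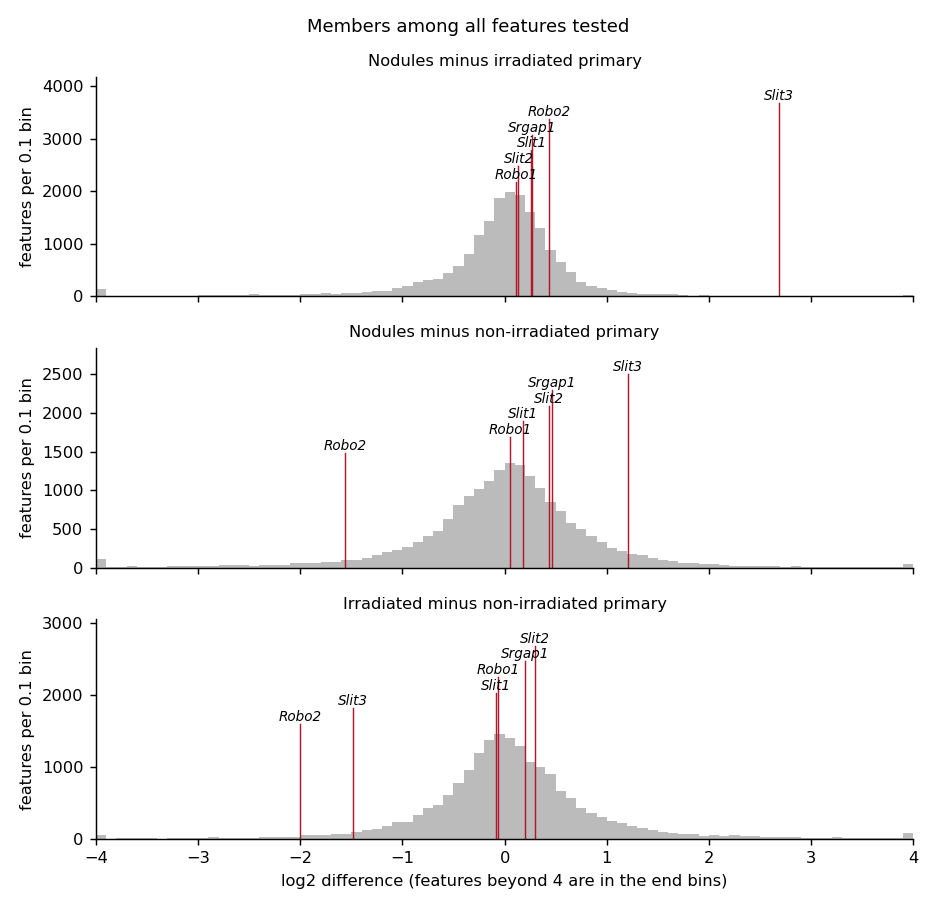
Histograms of the log2 differences of all features tested (horizontal axis, grey bars, features per bin of 0.1) in the 3 comparisons, with the 6 measured genes as red lines. Slit3 lies in the upper tail in both nodule comparisons (2.69 and 1.20), Robo2 in the lower tail against the non-irradiated primary (-1.56), and both lie in the lower tail between the primaries.

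The genes with the pattern closest to Slit3 were found as the smallest root mean square difference over the 5 arrays, after each gene's own mean was subtracted. They were Mmp23, a membrane-bound metalloproteinase (0.216 log2 units), Fry, a large scaffold protein (0.228), Ica1, an islet cell autoantigen (0.273), Echdc3 (0.300) and Prss12, the protease neurotrypsin (0.313). Mmp23 read -1.85, -1.53 and -2.02 in nodules 1, 2 and 3, against -4.01 in the irradiated and -2.79 in the non-irradiated primary. Fry read 1.40, 1.42 and 1.42 in the nodules, against -0.93 in the irradiated and 0.40 in the non-irradiated primary. Like Slit3, both were lowest in the irradiated primary, with the non-irradiated primary between it and the nodules. Echdc3 and Prss12 were not well above background in either primary, so their lows are bounds: both were at least 2.1-fold higher in the nodules than in each primary.

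The genes closest to Robo2 were Apool2 (0.250), Ttll9, a tubulin ligase-like protein (0.256), and Them5, a thioesterase (0.260). All 3 were well above background only in nodule 1 and the non-irradiated primary, the tumours where Robo2 was high. Their values are thus the likeness of a high pair of arrays and no more.

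**Figure D4:**
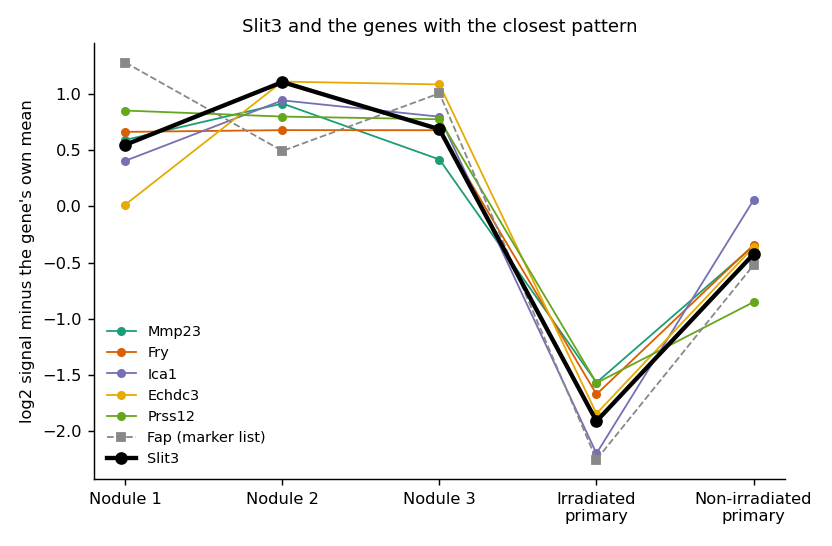
Log2 signal minus each gene's own mean over the 5 arrays (vertical axis) for Slit3 (black), the 5 named genes closest to it and the fibroblast marker Fap (dashed), in the 3 nodules, the irradiated primary and the non-irradiated primary. Slit3, Mmp23, Fry, Ica1 and Fap are lowest in the irradiated primary, while Echdc3 and Prss12 were not well above background in either primary, so their order there cannot be read; Fap differs from Slit3 in being lowest among the nodules in nodule 2, where Slit3 was highest.

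Among fibroblast markers, Fap followed the order of Slit3 across the groups, and most others did not. Of 12 fibroblast and mesothelial markers 8 were tested, and 2 rose against the irradiated primary by limma, Fap, a fibroblast protease (log2 difference 3.17, SE 0.35, adjusted p = 0.0256) and the collagen Col3a1 (0.84, SE 0.13, adjusted p = 0.0477), where 0.909% of all features rose. Against the non-irradiated primary Col1a2, Col3a1 and Wt1 rose and 0 fell, where 9.72% of all features rose. Fap, at a difference of 1.45, did not pass there (adjusted p = 0.0519). It read -1.52, -2.31 and -1.796 in the nodules, against -5.05 in the irradiated and -3.32 in the non-irradiated primary. Fap was the marker closest to Slit3 (0.477, place 38 of 11098 named features). Between the primaries Slit3 and Fap were lower in the irradiated one, with log2 differences of -1.48 and -1.73, whereas Col1a2 (1.55), Wt1 (1.98, dim in the non-irradiated primary), Dcn (1.54) and Col3a1 (0.54) were higher there. The summed signal of the list was 13732, 11846 and 11829% of the 75th percentile in the nodules, against 11263% in the irradiated and 7344% in the non-irradiated primary. Nodules 2 and 3 thus lay little above the irradiated primary. Unlike Slit3, the sum was higher in the irradiated than in the non-irradiated primary. Col1a2 was its largest part in all but the non-irradiated primary, where the mesothelial marker Msln was. Fap was a small part on every array.

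Marker sums of other tissues differed between the tumours. Alveolar and airway markers, with 8 of 12 tested, summed to 5627, 2585 and 1072% in nodules 1, 2 and 3, against 926% in the irradiated and 1125% in the non-irradiated primary. Pdpn, near level on all 5 arrays, was the largest part of that sum in all but nodule 1. The surfactant protein Sftpd read 4.46, 2.27 and -6.00 in nodules 1, 2 and 3, -6.31 in the irradiated and -5.92 in the non-irradiated primary. The airway protein Scgb1a1 split the same way, while Sftpc was lower in nodule 2 than in both primaries. Endothelial markers, with 6 of 12 tested, summed to 431, 231 and 144%, against 131% and 154%, and pericyte and smooth muscle markers, with 10 of 12 tested, to 4050, 2010 and 1930%, against 2077% and 2530% in the same order. Nodule 1 was highest in all 3 sums, as it was among the nodules for Robo2, and the non-irradiated primary was not. Cspg4, which is also on the glial and glioma list, was the largest single part of the pericyte sum. Whether host or tumour cells gave these signals was not tested. Single members differed from their sums: the pericyte receptor Pdgfrb, named after its values were seen, read 1.93, 1.39 and 1.05 in the nodules, 0.93 in the irradiated and 3.02 in the non-irradiated primary, so it was highest in that primary and next in nodule 1, as Robo2 was. Pdgfrb was the only tested marker of its list that was highest in that primary, and Rgs5 and Myh11 were lowest there. Of the endothelial list, Flt1 alone passed limma, falling by 2.04 against the non-irradiated primary (SE 0.38, adjusted p = 0.03). Over all features 8.85% fell there. Flt1 read -1.96, -2.51 and -2.86 in the nodules, -1.75 in the irradiated and -0.41 in the non-irradiated primary. It was thus highest in that primary, while the other tested endothelial markers were highest in nodule 1. Skeletal muscle markers, with 12 of 14 tested, summed to 519, 594 and 684% in the nodules, against 13209% in the irradiated and 3019% in the non-irradiated primary. The part of fibroblast, lung, vessel or muscle RNA in the Slit3 and Robo2 values was not tested. In bulk samples fewer cells of a type and less RNA per cell cannot be told apart.

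Next came genes known to bind Slit or Robo proteins or to act under them. Of 32 listed, 27 had a probe and 25 were tested. Against the irradiated primary 0 rose and 0 fell by limma, where 3.72% of all features passed. At an unadjusted p under 0.05 there were 5, where 4153 of all 18913 features had one. The median difference was 0.085 beside 0.034 over all features. In the comparison with the non-irradiated primary 2 rose and 2 fell, and 21 did not pass, where 18.6% of all features passed, with a median of 0.22 beside 0.038. A share of 4 in 25 is near that background.

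Srgap2, a relative of Srgap1, read 2.61, 2.58 and 2.54 in the nodules and 2.28 in the irradiated primary, against 0.52 in the non-irradiated primary. The nodules and the irradiated primary were thus high and the non-irradiated primary low. It rose by 2.06 against the non-irradiated primary (SE 0.11, limma adjusted p = 0.00761). The adaptor Nck2, which binds Robo tails, rose by 0.89 (SE 0.14, adjusted p = 0.0223).
Dag1, dystroglycan, a matrix receptor that binds Slits, fell by 1.33 (SE 0.24, adjusted p = 0.0296) and Cdh2, the adhesion molecule N-cadherin, fell by 1.46 (SE 0.18, adjusted p = 0.0157). Without nodule 2 all 4 calls were lost (adjusted p 0.0562 to 0.0988), and without nodule 3 those of Nck2, Dag1 and Cdh2 were lost (0.0612 to 0.0731). These losses are not particular to the 4 genes. Of all 18913 features, 3512 passed in the full comparison, 0 without nodule 2 and 344 without nodule 3. The chemokine Cxcl12 and its receptor Cxcr4, whose signalling Slits can dampen in cultured cells, lay 1.64 and 2.31 higher in the nodules than in the non-irradiated primary and did not pass (adjusted p = 0.12 and 0.0621).
Between the primaries 4 of the 25 were at least 2-fold higher in the irradiated one, Cxcl12 (log2 difference 2.27), Cxcr4 (2.00), Srgap2 (1.76) and Nck2 (1.14), and Dag1 was lower (-1.25), where 9.3% of all features were at least 2-fold higher and 7.13% lower. Slit3 and Robo2 went the other way from these 4 genes.

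Other guidance families were counted beside them. Of 6 netrin and netrin receptor genes tested (14 listed), the netrin receptor Unc5c fell by 1.97 against the irradiated primary (SE 0.31, limma adjusted p = 0.0482), 0 rose, and the median was -0.17. Over all features 2.81% fell and 0.909% rose in that comparison. Unc5c read -4.09, -3.83 and -3.44 in the nodules, against -1.81 in the irradiated and -1.90 in the non-irradiated primary, so it was low in all nodules and similar in the primaries. This call was lost in 7 of 11 other settings. Against the non-irradiated primary Unc5c fell by 1.89 (SE 0.31, adjusted p = 0.0244), and the guidance molecule Rgma fell by 1.62 (SE 0.19, adjusted p = 0.0145). Of all features 8.85% fell and 9.72% rose there. The netrin Ntn4 rose and was at least 6.08-fold higher than in the non-irradiated primary, where its brightest probe was not well above background (adjusted p = 0.0127). For these bounds a level not well above background was replaced by the lowest level well above background on its array. A measured level higher than that was kept, as for Sema6d below. The bounds hold for the main background correction only: with normexp the fitted log2 differences were 0.95 for Ntn4 and 0.17 for Sema3e. Another Ntn4 probe did not follow, and with only probes detected on all 5 arrays the difference was -0.60 (adjusted p = 0.607).

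Of 19 semaphorins, plexins and neuropilins tested (31 listed), 0 passed limma against the irradiated primary, where 3.72% of all features passed. At an unadjusted p under 0.05 there were 4, and the median was 0.026. There were 2 that rose and 2 that fell against the non-irradiated primary, with a median of 0.56. The 4 of 19 called are near the 18.6% of all features. The semaphorins Sema6d and Sema3e were at least 3.50-fold and 1.52-fold higher (adjusted p = 0.0437 and 0.02), both dim in that primary, and both calls were lost with normexp (adjusted p = 0.277 and 0.504). The Sema6d call was lost in 5 of 9 other settings, among them no filter on dim probes and no intensity trend. Sema4c fell by 0.98 (adjusted p = 0.0455), a call lost in 5 of 11 other settings, and the plexin Plxnb3, dim in all 3 nodules, was at least 4.74-fold lower (adjusted p = 0.0275).

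Of 12 ephrins and Eph receptors tested (21 listed), 0 passed limma against the irradiated primary, where 3.72% of all features passed. At an unadjusted p under 0.05 there were 2, and the median was -0.16. The receptors Epha2 (log2 difference 0.80, adjusted p = 0.0497) and Epha4 (at least 1.72-fold higher, adjusted p = 0.0285) rose against the non-irradiated primary and 0 fell, with a median of 0.063. Those 2 of 12 also lie near the 18.6% of all features. The Epha2 call was lost in 8 of 11 other settings, and that of Epha4 with normexp (adjusted p = 0.137). Without nodule 2 none of the calls named in these guidance lists held, but 0 of all 18913 features then passed in either comparison. That loss therefore says nothing particular about these genes.

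**Figure D5:**
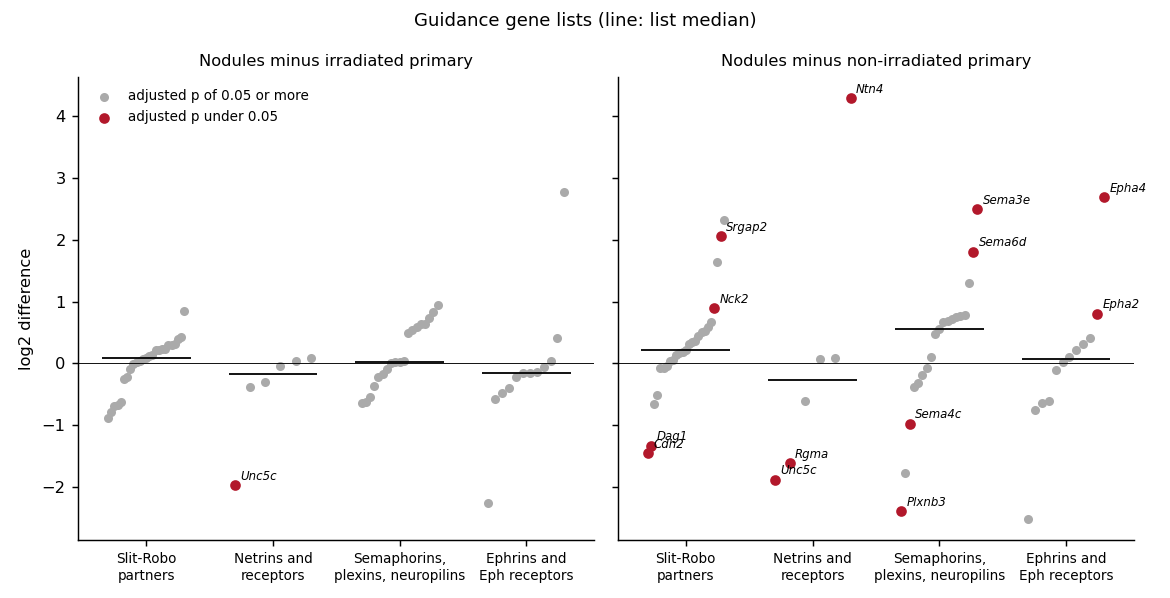
Log2 differences (vertical axis) of the tested genes of 4 guidance lists for nodules minus irradiated primary and nodules minus non-irradiated primary; red points have a limma adjusted p under 0.05 over all features and black lines are list medians. Against the irradiated primary Unc5c is the 1 gene in red; fitted values of genes dim in a group, such as Ntn4 and Epha4, are drawn as fitted and are not bounds.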

How the data were processed

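RNA of 5 tumours was measured on single-colour (Cy3) Agilent rat arrays, 1 array per sample, on 1 slide. The nodules fill 1 slide row, so row and group cannot be told apart. Per the file headers, the deposited spot intensity had its background subtracted and was detrended by Agilent Feature Extraction 11.0 array by array, without adjustment across arrays. Per the file headers, flags of other kinds (0 or 1) mark spots as saturated, as outliers or as well above background. A deposited table of log2 values for 18502 probes, whose making by the authors is not given in the sources used here, had equal column medians of 9.74 and correlated at 0.9996 to 0.9999 with the arrays.

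Outlier spots (0.603 to 0.865%) were dropped, spots of a probe averaged as log2 signal, and each array's 75th percentile subtracted. Of 30367 probes, 30363 were used and 18354 were named through RefSeq accessions. A probe counted as well above background on an array when most of its usable spots did, and was tested when it did so on all arrays of at least 1 group. Tests used limma 3.58.1 in R 4.3.3 (3 group means, intensity trend, Benjamini-Hochberg adjusted p under 0.05 over all features). Between the primaries a log2 difference of 1 or more was counted, with no test, among 18442 features. The script was tested on simulated data with 200 changed features, for nodules minus irradiated primary. It recovered 2% of changes of 1 log2 unit, 54% of 2, 84% of 4 and 90% of 8, with 2 false calls. Most simulated 2-fold changes were thus missed. Alternatives changed scaling, background correction, filter, variance model, value source, probe rule and nodules. The planned normexp correction used median spot signals.

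The members and gene lists were chosen with earlier results of these data known. Named genes were the members, list genes called against either primary (others where a count turned on them), and the 5 genes closest to Slit3 and 3 closest to each other member. Sequences come from RefSeq (GRCr8), which gave an upstream stretch for 5 of the 7 genes. The array design uses an older build, rn4, so no probe coordinates are given.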

Additional observations from a re-analysis of the deposited data

How the results depend on the processing

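Of 162 member values recomputed under other settings, 155 stayed on their side of the threshold or, where there was no test, moved by less than the nodule spread. The sign changed in 3 values, none of them called: Robo2 against the irradiated primary (-0.091 without nodule 1), Robo1 against the non-irradiated primary (-0.061 with normexp) and Srgap1 between the primaries, given next. The others were the 3 Slit3 differences with normexp, Robo2 without nodule 1, and 3 small differences between the primaries, Robo1 with normexp (-0.17) and Srgap1 with normexp (-0.03) and with quantile normalization (0.12). Counts over all features hung on single nodules. Against the irradiated primary limma called 704, with 438 under array median scaling, 399 without an intensity trend, and 0 to 3187 when 1 nodule was left out (3187 without nodule 1, 189 without nodule 3, and 0 without nodule 2, where 2690 had an unadjusted p under 0.05). Against the non-irradiated primary it called 3512, with 0 to 6406 when 1 nodule was left out (6406 without nodule 1, 344 without nodule 3, and 0 without nodule 2, where 4987 had an unadjusted p under 0.05). The cause was not tested. At least 2-fold differences between the primaries numbered 3030, and 1494 with normexp.

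For list genes, chosen after seeing the data, Ntn4 turned to -0.60 when a probe had to be detected on all 5 arrays and -0.54 in the deposited table, the first of which leaves out its brightest probe. The call of Unc5c against the irradiated primary was lost in 7 of 11 settings and that of Epha2 against the non-irradiated primary in 8 of 11. The count of pathway genes called against the non-irradiated primary was 4, and 8, 0 and 1 without nodule 1, 2 and 3. No paired analysis was possible because each primary was a single array and the labels do not say which tumours shared a host. Signal over background limits the dim Slit3 and Srgap1 levels.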

Other observations

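The genes closest in pattern to the members that stayed nearly level were spread over unrelated functions. Those closest to Slit1 were the glycine receptor subunit Glra1 (root mean square difference 0.0242 log2 units over 5 arrays), the DNA helicase Fbh1 (0.0243) and the cytoskeletal protein Add1 (0.0279). Slit2 was closest to the apoptosis factor Apaf1 (0.0465), Ydjc (0.0483) and the olfactory receptor Or5aq1d (0.0513). Robo1 was closest to the Wnt co-receptor Lrp6 (0.0178), the ribosomal protein Rpl23a (0.0195) and the RNA helicase Ddx6 (0.0197). Srgap1 was closest to the methyltransferase Setd7 (0.0210), the elongation factor Eef1d (0.0231) and the capping enzyme Rngtt (0.0294).

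Macrophage markers, with 9 of 10 tested, were at their lowest sum in the non-irradiated primary. Their summed signal was 4780, 4687 and 4206% of the 75th percentile in nodules 1, 2 and 3, against 5115% in the irradiated and 2177% in the non-irradiated primary. The complement genes C1qa and C1qb made up most of that sum. By limma 0 of 9 passed against the irradiated primary (2 at an unadjusted p under 0.05), where 3.72% of all features passed. Against the non-irradiated primary 5 rose and 2 fell, where 9.72% of all features rose and 8.85% fell. The 2 that fell were Cd68 and Cd163. Cd163 was highest in the non-irradiated primary, and so, by a small margin over the irradiated one, were Cd68 and Mrc1, so the markers did not move together. Srgap2, Cxcr4 and Cxcl12 were low in the same tumour. The part of macrophage RNA in those values was not tested. Cardiac muscle markers, with 10 of 12 tested, summed to 741, 672 and 4891% in the nodules, against 1053% in the irradiated and 856% in the non-irradiated primary. None of the measured Slit and Robo genes, nor Srgap1, was highest in nodule 3.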
